A study of Mus musculus with 75 samples.

Results

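The growth hormone, STAT5 and IGF1 axis was followed as 10 genes chosen by symbol, Ghr, Jak2, Stat5a, Stat5b, Socs2, Cish, Igf1, Igfals, Bcl6 and Cux2, out of 55536 genes in the count table. All 10 were found and all 10 passed the filter on low counts in every comparison. Bulk liver RNA was sequenced from male C57Bl/6 mice whose dams were given vehicle or, in drinking water, tributyltin (TBT), a tin-containing biocide; the TBT dose was 0.5 mg/kg/day (3.07 µM) and stopped when pups were weaned. At 3 weeks there were 7 vehicle and 8 TBT mice. At 5 months there were 8 vehicle mice, 16 exposed mice labelled low-risk and 10 labelled high-risk for liver tumors. At 10 months there were 6 vehicle mice, 5 low-risk mice, 5 samples of uninvolved liver from high-risk mice and 7 tumors. All mice are labelled wild type. The labels leave unsaid on what basis 5-month livers were called low- or high-risk, so whether those names rest on the expression values themselves is unknown.

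Growth hormone binds its receptor on hepatocytes, and the receptor-bound kinase JAK2 then phosphorylates STAT5A and STAT5B, which enter the nucleus and drive target genes. Among these targets are Igf1 and Igfals, whose products circulate together in a complex with an IGF-binding protein, and Socs2 and Cish, whose products damp the signal. In rodents the pituitary releases growth hormone in pulses in males and more evenly in females, and the pattern sets sex-biased liver genes, in part through BCL6, a repressor more abundant in male liver, and CUX2, a factor more abundant in female liver.

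Levels are normalized CPM, that is counts scaled to library size with TMM factors, and those set beside each other across genes were also divided by exon length in kilobases. Per kilobase, the mean in 5-month low-risk livers was 77.4 for Ghr, 65.0 for Igf1 and 41.5 for Igfals, 15.9 for Stat5b, 6.24 for Jak2, 5.56 for Bcl6, 3.86 for Socs2, 2.76 for Stat5a, 1.58 for Cish and 0.174 for Cux2. The transducer Stat5b thus exceeded Stat5a. Its ratio to Stat5a per length had a mean between 4.45 in 5-month high-risk and 6.65 in 10-month vehicle livers. The lowest ratio of any liver in these groups was 3.1755. Spread between mice of a group set the genes apart as well. Jak2 had a within-group SD of 0.21 on the log2 scale, and 4.21% of 13193 genes had a smaller one. For Socs2, Cux2, Cish and Bcl6 the SDs were 0.78, 1.06, 1.19 and 1.23, and 93.0%, 97.6%, 98.6% and 98.8% of genes had a smaller one.

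Promoter windows from 250 bases before to 50 bases after annotated starts (RefSeq, GRCm38.p6) were available for 9 of the 10 genes, 16 windows in all. They were searched for TTCNNNGAA, the sequence that STAT5 dimers bind, which reads the same on both strands. It stood in 8.3% of 32851 windows, and 0.457% held 2 or more. Of the 16 windows 5 held it, those of Cish, Igfals and Bcl6. The windows below are shown because Cish and Bcl6 were the members with the largest within-group SD, and Igfals was among those that differed between risk groups. Capitals mark each match, and its first base is counted from the annotated start as 0. For Cish (chr9:107296409-107296708, plus strand) matches began at 0 and 11. For Igfals (chr17:24877981-24878280, plus strand) the match began at -58, and another Igfals window held 1 match at -236. For Bcl6 (chr16:23981234-23981533, minus strand) matches began at -168, -122 and -88, and 0.0335% of all windows held 3 or more. A match is a stretch of letters and does not show binding.
Cish: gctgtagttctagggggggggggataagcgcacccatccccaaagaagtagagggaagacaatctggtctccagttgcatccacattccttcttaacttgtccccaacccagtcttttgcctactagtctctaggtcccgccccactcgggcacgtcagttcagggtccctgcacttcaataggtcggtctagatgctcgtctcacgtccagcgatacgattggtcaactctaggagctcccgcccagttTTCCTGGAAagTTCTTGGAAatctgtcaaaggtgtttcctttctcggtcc
Igfals: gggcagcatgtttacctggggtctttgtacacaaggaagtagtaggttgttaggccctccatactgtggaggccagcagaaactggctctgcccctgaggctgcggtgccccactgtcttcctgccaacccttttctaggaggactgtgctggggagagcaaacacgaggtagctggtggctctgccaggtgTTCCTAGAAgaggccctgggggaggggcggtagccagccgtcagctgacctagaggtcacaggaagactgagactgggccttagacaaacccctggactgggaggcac
Bcl6: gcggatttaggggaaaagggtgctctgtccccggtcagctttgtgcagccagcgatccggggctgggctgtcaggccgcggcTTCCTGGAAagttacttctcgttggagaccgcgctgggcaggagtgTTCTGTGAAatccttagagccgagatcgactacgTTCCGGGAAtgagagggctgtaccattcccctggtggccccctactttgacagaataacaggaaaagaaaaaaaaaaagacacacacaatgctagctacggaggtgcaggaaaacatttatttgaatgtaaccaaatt

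Ghr, the receptor gene (ENSMUSG00000055737, GRCm38 chromosome 15, 3317760 to 3583492), was the member that most clearly separated 5-month livers by risk. Its level ran from 195.79 to 445.92 with a median of 315.6 in the 10 high-risk livers, and from 534.5 to 897.6 with a median of 707.75 in the 16 low-risk livers. No high-risk liver reached the lowest low-risk liver, and 1.64% of the 14773 genes tested had groups that did not overlap. The mean was 322 ± 89.0 (SD, n = 10) against 701 ± 93.8 (n = 16), a log2 fold change of -1.10 (SE 0.13, edgeR quasi-likelihood, Benjamini-Hochberg adjusted p 1.55e-07). Within sequencing batch 1 alone the change was -1.05 and within batch 2 it was -1.12, and both passed the same test. The 8 vehicle livers ran from 294.64 to 707.68 with a median of 569.2 and overlapped both risk groups. High-risk livers were lower than vehicles, at -0.70 on the log2 scale (SE 0.16, edgeR adjusted p 0.00384). In batch 1 alone the change of -0.59 did not pass (edgeR adjusted p 0.300), nor did that of -0.33 without TMM scaling (edgeR adjusted p 0.0684) or that of -0.69 with only these groups fitted (edgeR adjusted p 0.0533), and batch 2 held 1 vehicle.

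Of the 10 genes, 3 were lower and 0 higher in high-risk than low-risk livers at adjusted p under 0.05. Of all genes 38.9% passed, 18.5% lower and 20.3% higher, and the median log2 fold change was -0.48 over the members and -0.01 over all genes. The other 2 were Igfals and Stat5b. Igfals encodes the acid-labile subunit that keeps circulating IGF1 in its large complex. It ran from 28.9 to 111.45 with a median of 54.3 in high-risk and from 44.98 to 204.34 with a median of 136.3 in low-risk livers. High-risk livers were lower, at -1.16 on the log2 scale (SE 0.22, edgeR adjusted p 9.47e-05), and 4 of the 10 were below every low-risk liver. In batch 1 alone, with 3 against 6 livers, the change was -1.29 and did not pass (edgeR adjusted p 0.123), and in batch 2 it was -1.10 and did. Stat5b, the main STAT5 of male liver, ran from 47.6 to 101.13 with a median of 64.4 in high-risk and from 49.5 to 128.36 with a median of 88.2 in low-risk livers. It fell by 0.45 (SE 0.12, edgeR adjusted p 0.00228), with wide overlap. Without TMM scaling, which moved the median of all genes by 0.31, the value was -0.15 and did not pass (edgeR adjusted p 0.255), while those of Ghr and Igfals were -0.80 and -0.88 and did.

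Igf1 itself, the secreted growth factor, did not pass at 5 months. It ran from 278.25 to 861.07 with a median of 653.11 in high-risk, from 412.39 to 876.4 with a median of 622.15 in low-risk and from 321.11 to 813.8 with a median of 668.3 in vehicle livers, and the groups overlapped almost fully. The log2 difference of high-risk minus low-risk livers was -0.04, with a 95% interval from -0.31 to 0.23 (edgeR adjusted p 0.846). That interval does not include the change seen for Igfals or Ghr, but the difference between genes was not tested. Jak2 was at 29.3 ± 4.56 (n = 10) and 31.4 ± 6.65 (n = 16), with an interval from -0.27 to 0.13. Stat5a had an interval from -0.27 to 0.17.

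**Figure D1:**
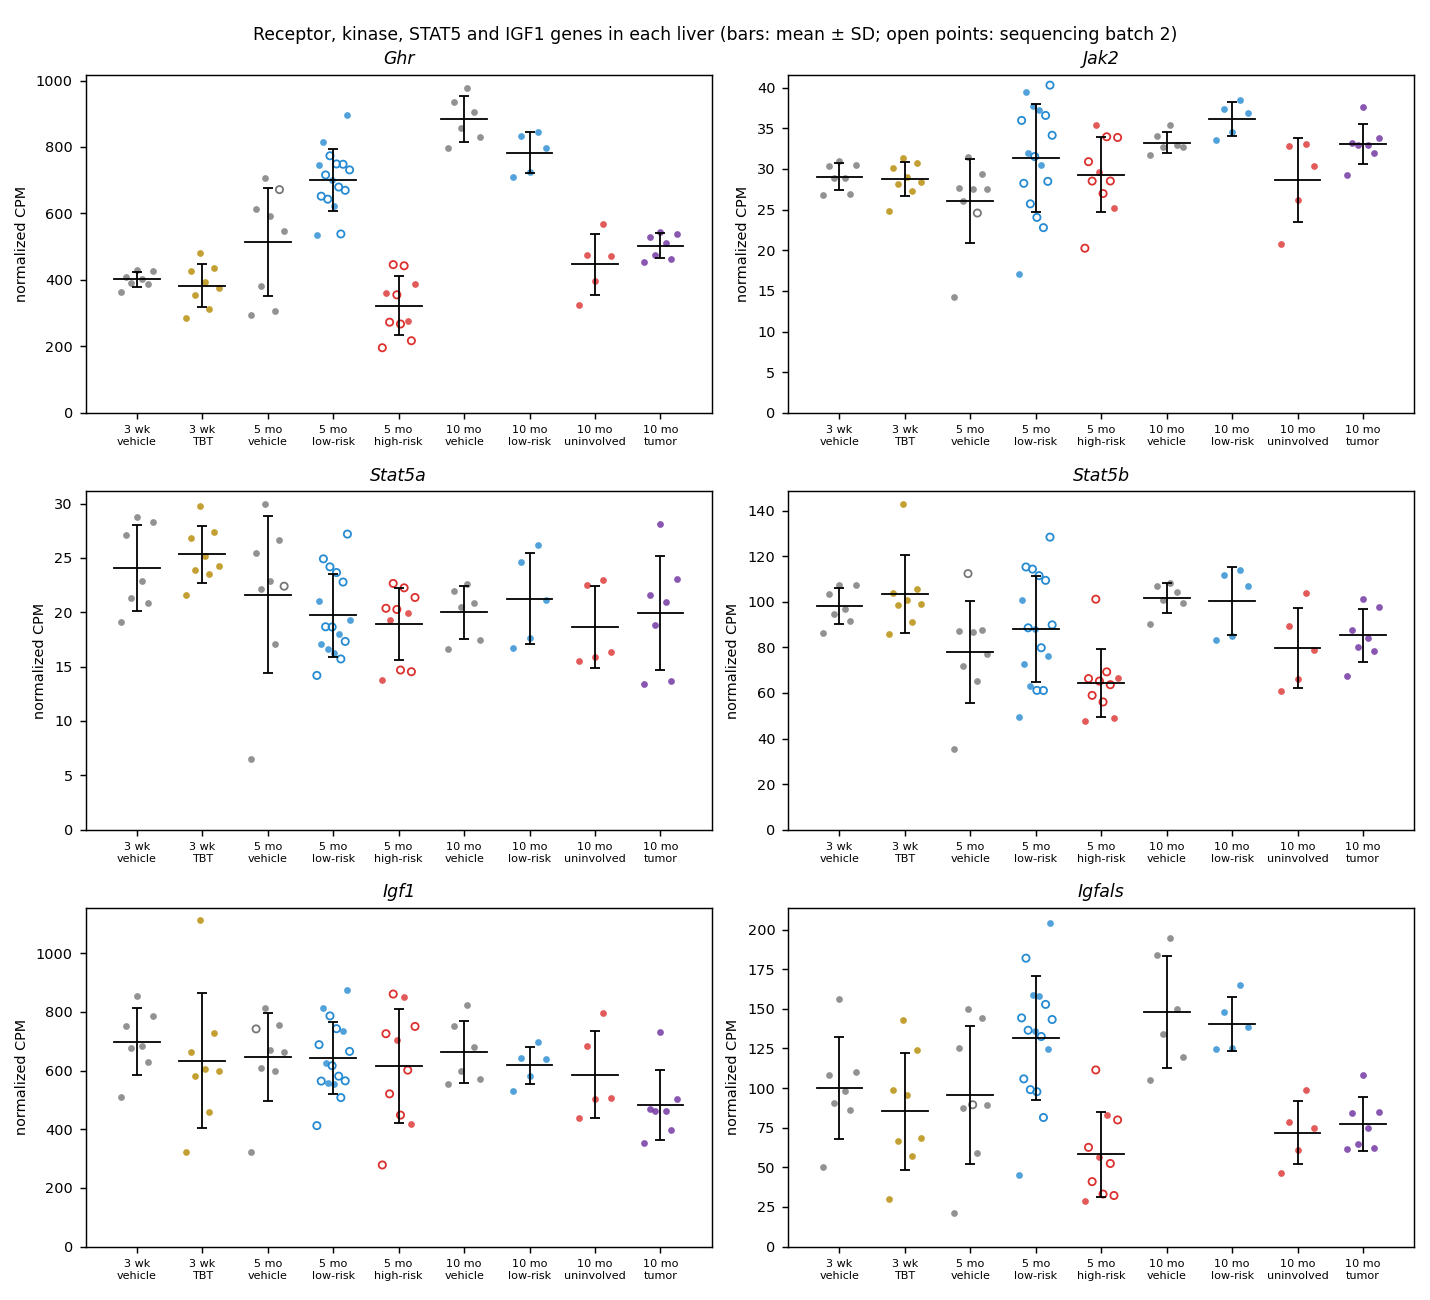
Normalized CPM (linear axis from 0) of Ghr, Jak2, Stat5a, Stat5b, Igf1 and Igfals in every liver, by group. Points are samples, open points are of sequencing batch 2, and bars give the mean ± SD. Ghr of the 10 high-risk livers of 5 months lies between 195.79 and 445.92, below all 16 low-risk livers, whereas Igf1 overlaps.

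Against vehicles, 2 of the 10 genes were lower in high-risk livers, Ghr and Stat5b (-0.51, SE 0.15, edgeR adjusted p 0.0181), where 15.8% of all genes passed and 7.38% were lower. The Stat5b value was -0.27 without the batch covariate and did not pass (edgeR adjusted p 0.242), nor did that of -0.46 without vehicle 8, -0.14 without TMM scaling, -0.48 in batch 1 alone or -0.53 with every gene kept. The call was kept in 11 of 16 alternatives. Jak2 was at 0.18 and did not pass, but without TMM scaling it was higher by 0.56 and did (edgeR adjusted p 0.00338). Igfals was at -0.68 (edgeR adjusted p 0.0933). Low-risk livers against vehicles gave 0 of the 10 genes, as 0.0% of all genes passed by edgeR with 934 at an unadjusted p under 0.05. The Ghr difference there was 0.40 (95% interval 0.10 to 0.70) and the Jak2 difference 0.25 (0.02 to 0.49). Both had an unadjusted p under 0.05 and neither passed adjustment.

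At 10 months Ghr was again lower in livers of high-risk mice. It was at 396, 471, 569, 474 and 325.71 in uninvolved livers 12, 1, 5, 7 and 3 with 6 summed, and at 725, 797.2, 711, 846.3 and 834.2 in low-risk livers 10, 2, 4, 8 and 9. All 5 uninvolved samples were below all 5 low-risk livers, as was true of 28.7% of the genes tested in either direction. The log2 fold change was -0.85 (SE 0.13, edgeR adjusted p 4.99e-05). Igfals was at 74.7, 46.3, 60.8, 78.6 and 98.9 in the same uninvolved samples and at 124.45, 148.3, 125.5, 138.5 and 164.85 in low-risk livers, again without overlap, with a change of -1.02 (SE 0.18, edgeR adjusted p 0.000236). Jak2 was at 20.8, 33.1, 32.8, 30.4 and 26.1 against 38.4, 36.9, 34.5, 33.55 and 37.4, without overlap, and fell by 0.38 (SE 0.11, edgeR adjusted p 0.00673). Without TMM scaling Jak2 was at -0.12 and did not pass (edgeR adjusted p 0.486).

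In all, 5 of the 10 genes passed between uninvolved and low-risk livers, 4 lower and 1 higher, where 52.4% of all genes did, 24.7% lower and 27.7% higher. Stat5b was lower (-0.38, SE 0.13, edgeR adjusted p 0.0188), but the change was -0.15 without TMM scaling and did not pass (edgeR adjusted p 0.264), nor did it without uninvolved liver 1 or 7. Cux2 was higher by 1.31 (SE 0.52, edgeR adjusted p 0.0432), at 1.17, 1.05, 1.205, 5.26 and 1.95 against 0.416, 0.950, 0.897, 1.31 and 0.577. It did not pass without low-risk liver 2, 4, 9 or 10, without the summed uninvolved sample, or without uninvolved liver 7, where the value was 0.65. Against vehicles 4 genes were lower, Ghr (-1.05), Igfals (-1.11), Stat5b (-0.42) and Jak2 (-0.28), where 57.7% of all genes passed by edgeR and 26.5% were lower. Ghr and Igfals did not overlap there, as held for 30.0% of genes. Without TMM scaling Jak2 was at 0.06 and Stat5b at -0.12, and neither passed. Jak2 also did not pass without vehicle 1, without uninvolved liver 12 (-0.18) or without the summed sample. Both comparisons share the uninvolved livers. Those libraries had 4.20% to 5.85% mitochondrial counts and 34762240 to 44585060 counts each, against 2.94% to 3.08% and 26428664 to 33486835 counts in low-risk livers, and the part of this in the differences was not tested. Low-risk livers against vehicles gave 0 of 10, as 0.0% of all genes passed by edgeR with 688 at an unadjusted p under 0.05.

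Igf1 did not pass in uninvolved liver, with a difference of -0.12 from low-risk liver (95% interval -0.45 to 0.22, edgeR adjusted p 0.545). Socs2 (-0.84, edgeR adjusted p 0.102), Cish (-0.86, edgeR adjusted p 0.279), Stat5a (-0.24) and Bcl6 (0.27) did not pass there either. Socs2 and Cish each passed in 1 of 17 alternatives. The gap between risk groups at 10 months minus that at 5 months was also tested, and 0 of the 10 genes passed, where 0.448% of all genes did (edgeR, 1945 genes at an unadjusted p under 0.05). The change of the gap was 0.25 (95% interval -0.17 to 0.67) for Ghr and 0.15 (-0.58 to 0.87) for Igfals.

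In tumors Ghr ran from 454.71 to 544.48 with a median of 512.06 and lay within the range of uninvolved liver. Tumors against uninvolved livers gave 0 of the 10 genes by edgeR, where 18.1% of all genes passed. At an unadjusted p under 0.05 it was also 0 of the 10, and 5708 of all genes. Most tumors carry the same mouse number as an uninvolved liver. With the mouse as a replicate block, Cish was at -0.65 over 6 pairs (edgeR adjusted p 0.0456). That fit took the unusually alike uninvolved libraries 3 and 6 as separate samples, and Cish passed in only 1 of 20 alternatives. Over the 4 pairs without mice 3 and 6 Cish did not pass, and Bcl6 was at -0.63 (edgeR adjusted p 0.0247) in place of 0.00. Against vehicle livers 4 genes were lower, Ghr (-0.83, SE 0.08), Igfals (-0.95), Stat5b (-0.28) and Igf1 (-0.47, SE 0.16, edgeR adjusted p 0.0246), where 45.9% of all genes passed and 3216 of 15293 were lower. For Ghr no tumor reached a vehicle, as held for 19.4% of genes in either direction. Without TMM scaling Stat5b was at 0.03 and Jak2 at 0.27, of which Jak2 passed, and Stat5b also did not pass without vehicle 4. The Igf1 call was lost in 3 of the 13 fits that left out a sample and without TMM scaling, where its value was -0.19; the fits were those without tumor 11, vehicle 4 or vehicle 7. Igf1 ran from 352.23 to 731.28 with a median of 463.7 in tumors and from 555.6 to 822.3 with a median of 639.5 in vehicles, and 6 of 7 tumors were below every vehicle.

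**Figure D2:**
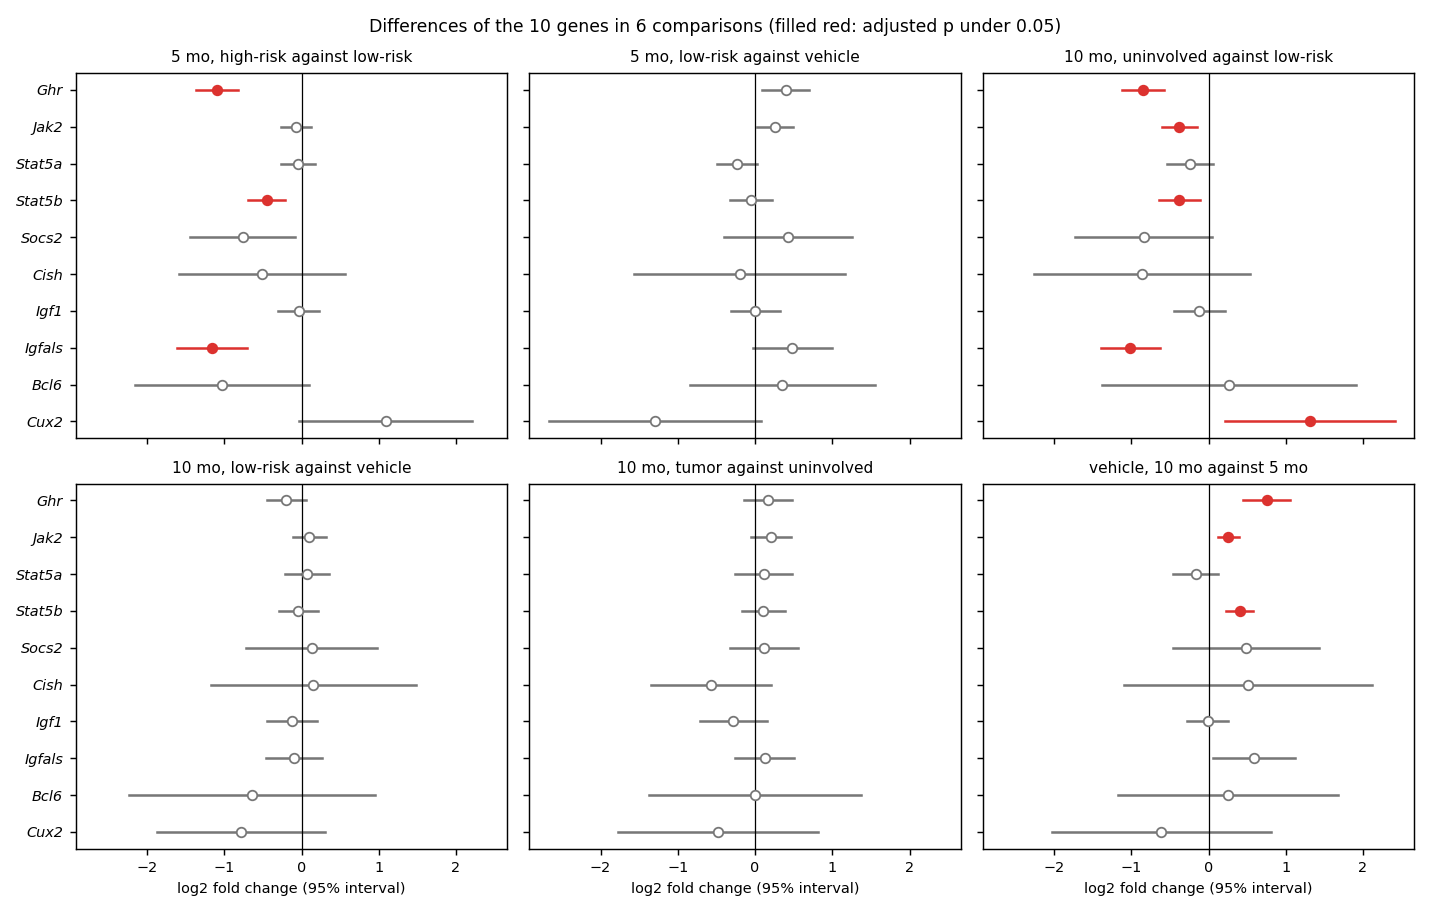
Log2 fold changes (points) and 95% intervals (lines) of the 10 genes in 6 comparisons, from edgeR, on 1 shared axis. Filled red points had an adjusted p under 0.05, and Ghr and Igfals lie to the left of 0 in both risk comparisons, while no gene is filled in low-risk against vehicle livers at either age or in tumor against uninvolved liver.

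The 4 genes of feedback and repression varied most within groups. In the 16 low-risk livers of 5 months, Cish ran from 0.351 to 31.7, Socs2 from 2.98 to 106.41 and Bcl6 from 6.16 to 141.89. On a log scale the widest gap in Bcl6 parted these livers into 8 between 6.16 and 13.2 and 8 between 28.4 and 141.89. Cish was between 7.09 and 31.7 in the first 8 and between 0.351 and 4.06 in the second 8, so that no liver of the one set overlapped the other. Socs2 was between 29.1 and 106.41 in the first set and between 2.98 and 41.5 in the second. This split was made on the measured values after they were seen, so it has no test. The first set held 2 livers of sequencing batch 1 and 6 of batch 2, the second 4 of each. Over whole groups, Pearson correlations of all 3 pairs among Cish, Socs2 and Bcl6 passed adjustment in low-risk livers (permutation tests). So did that of Cish with Bcl6 in high-risk livers. These 3 pairs were chosen after the values were seen, and adjustment covered only the 42 tests of them. The calls are therefore a description. By Spearman's rho, Socs2 with Bcl6 in low-risk livers (permutation adjusted p 0.0758) and Cish with Bcl6 in high-risk livers (permutation adjusted p 0.106) did not pass. Since these livers were cut into sets by Bcl6, no coefficient over a whole group is given. Splitting by Bcl6 narrows its range. Within the sets of 8, 12 tests, and within the 7 high-risk livers of low Bcl6, 6 more, gave none that passed adjustment (exact permutation). For Cish and Bcl6 in the low set Pearson's r was 0.62 (exact permutation p 0.1002, adjusted p 0.451) and Spearman's rho was 0.69 (exact permutation p 0.0694, adjusted p 0.437), and without the 2 livers farthest from the median of Cish r was 0.75. In the high set Pearson's r was -0.75 (exact permutation p 0.0729, adjusted p 0.437) and Spearman's rho was -0.29 (exact permutation p 0.501, adjusted p 0.669), and without the 2 livers farthest from the median of Cish r was -0.51. In the other 5 groups of 6 to 8 samples no correlation among Cish, Socs2 and Bcl6 passed adjustment (exact permutation tests). Low-risk liver 16, which has 11.2% mitochondrial counts, had the lowest Cish and Socs2 and the highest Bcl6 of its group. The highest Socs2 and Cux2 of the group, 106.41 and 8.19, were in low-risk liver 24. Its library held Xist, an RNA of female cells, at 84.6 CPM of total counts beside Y-linked genes at 237. The part of this in its values was not tested.

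High-risk livers of 5 months were also cut at the widest gap in Bcl6, a rule that parts any group into 2 sets. The gap lay between 15.9 and 27.8, and this split too was made after the values were seen and has no test. In 7 livers Bcl6 was between 5.95 and 15.9 with Cish between 2.78 and 12.01. In 3 livers Bcl6 was between 27.8 and 48.4 with Cish between 2.01 and 2.58, so the Cish ranges nearly met. Socs2 did not follow, with a median of 20.5 in the first set and 23.6 in the second. The first set held 1 liver of batch 1 and 6 of batch 2, the second 2 and 1. The log2 difference of high-risk minus low-risk was -0.51 for Cish (95% interval -1.58 to 0.56) and -1.03 for Bcl6 (-2.16 to 0.10), neither of which passed. Socs2, at 20.99 ± 7.95 (n = 10) against 36.8 ± 24.4 (n = 16), was at -0.76 (edgeR adjusted p 0.0698). It passed with DESeq2 (adjusted p 0.0456), without deviating libraries (-0.81, edgeR adjusted p 0.0408) and in batch 2 alone (-1.14, edgeR adjusted p 0.0229), but was at -0.03 in batch 1 (edgeR adjusted p 0.984). Cux2 was at 1.09 (edgeR adjusted p 0.116), at 1.39 without TMM scaling (edgeR adjusted p 0.0336), and at 0.33 without 4 livers of 5 months that deviated in depth, genes detected or mitochondrial share. Among these was high-risk liver 10, whose 21.02 was the highest Cux2 of any adult liver.

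**Figure D3:**
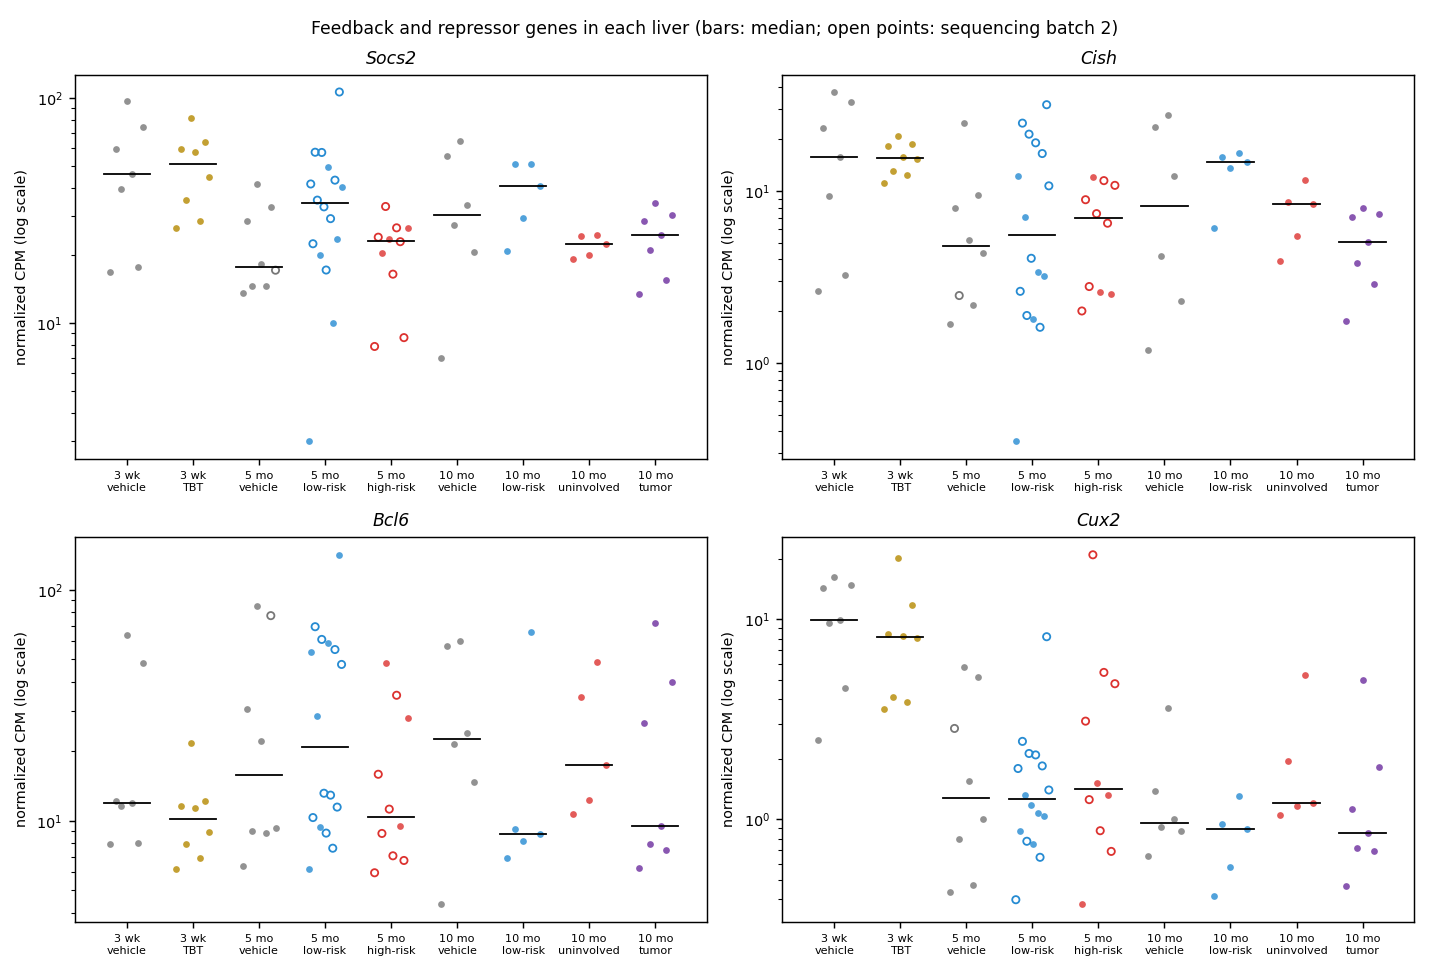
Normalized CPM (log axis) of Socs2, Cish, Bcl6 and Cux2 in every liver, by group, with the median as a bar and open points for sequencing batch 2. Cish and Bcl6 spread over more than a decade within several groups, and the median of Cux2 is highest in the 3-week groups.

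**Figure D4:**
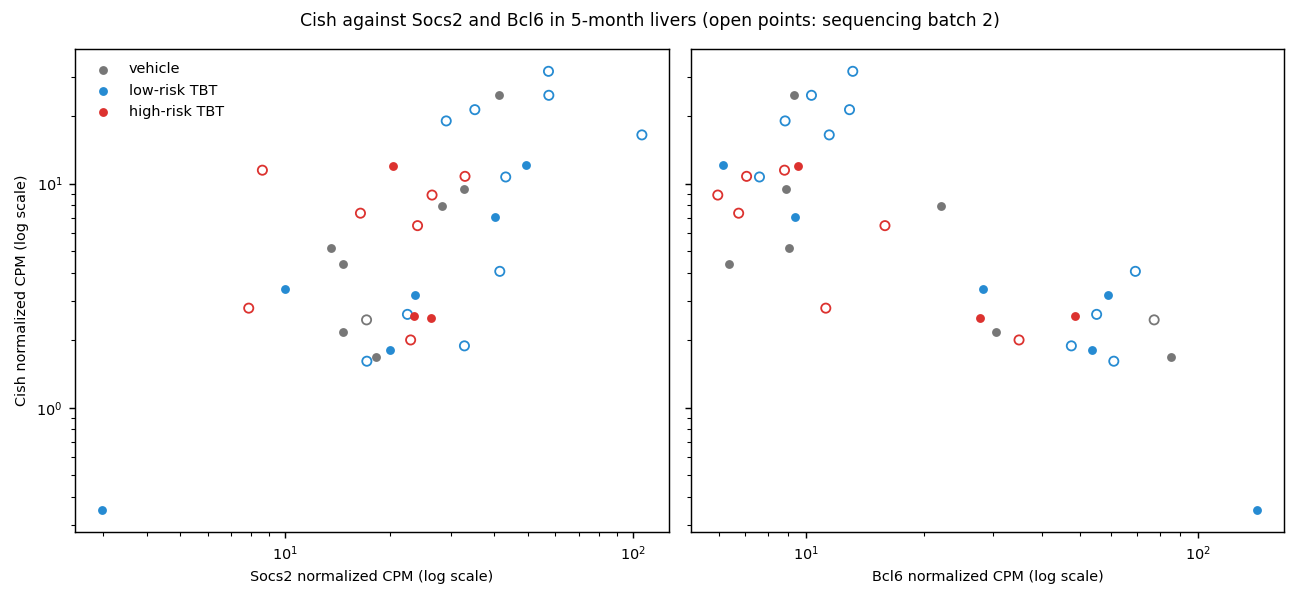
Cish against Socs2 and against Bcl6 in single 5-month livers (normalized CPM, log axes), with groups in color and open points for batch 2. Low-risk livers with Bcl6 between 6.16 and 13.2 have Cish of 7.09 or more, and those with Bcl6 of 28.4 or more have Cish of 4.06 or less.

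Levels of 4 genes changed with age in vehicle livers, compared within batch 1. From 3 weeks to 5 months Cux2 fell by 2.29 (SE 0.64, edgeR adjusted p 0.0125), from 10.3 ± 5.29 (n = 7) to 2.17, and Stat5b by 0.39 (edgeR adjusted p 0.00144), where 24.2% of all genes passed, 12.3% lower and 11.9% higher. Without a filter on low counts neither passed (edgeR adjusted p 0.0513 and 0.0774), and DESeq2 called 4 of the 10 genes. From 5 to 10 months Ghr rose by 0.75 (SE 0.14, edgeR adjusted p 0.00239), Stat5b by 0.40 (edgeR adjusted p 0.00469) and Jak2 by 0.25 (edgeR adjusted p 0.0128), where 14.1% of all genes passed and 6.68% were higher. For these 3 genes every 10-month vehicle was above every 5-month vehicle of batch 1, as was true of 4.49% of genes in either direction. The 5-month vehicle of batch 2, vehicle 8, was left out here. Its Stat5b, 112.36, was above all 10-month vehicles (90.04 to 108.42), while its Ghr and Jak2, 671.69 and 24.6, were below them all. With every gene kept, Stat5b and Jak2 did not pass (edgeR adjusted p 0.0561 and 0.0871). At 3 weeks, TBT against vehicle gave 0 of the 10 genes (edgeR, 474 of 14050 genes at an unadjusted p under 0.05), as 0.0% of all genes passed, and also 0 without the library labelled TBT 4, whose sex-linked genes did not match the male label. Bcl6 had the lowest unadjusted p, at -1.10 with an interval from -2.17 to -0.03.

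Sex-biased target genes of the axis moved between risk groups in both directions. In high-risk against low-risk livers of 5 months, 15 of 17 male-biased genes were lower and 0 higher, while 11 of 15 tested female-biased genes were higher and 0 lower, beside 18.5% lower and 20.3% higher of all genes. Among the male-biased, the transporter Slco1a1 was at 45.7 ± 50.1 (n = 10) against 640 ± 160 (n = 16), and the urinary protein gene Mup3, which shares sequence with near-identical copies, at 635 ± 564 against 6553 ± 1798. Among the female-biased, the fatty acid transporter Cd36 was at 189 ± 40.8 against 48.1 ± 16.7 and the monooxygenase Fmo2 at 41.1 ± 19.6 against 16.4 ± 4.03. In uninvolved against low-risk livers 9 of 17 male-biased genes were lower and 1 higher, and 5 of 13 female-biased genes were higher and 0 lower, beside 24.7% lower and 27.7% higher of all genes. From 3 weeks to 5 months in vehicles, 16 of 17 male-biased genes rose and 13 of 18 female-biased genes fell, beside 11.9% and 12.3% of all genes. These lists were written with earlier results of the data known, so the counts are a description.

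Among 31 tested partners of the pathway, high-risk livers of 5 months had 8 above and 6 below low-risk livers, and uninvolved livers of 10 months had 8 above and 3 below. Of all genes 20.3% were higher and 18.5% lower at 5 months, and 27.7% and 24.7% at 10 months, so the 5-month counts lay near the background. The 3 partners of smallest adjusted p at 5 months were all higher. Grb10, an adaptor that binds insulin and IGF receptors, was at 21.3 ± 10.2 (n = 10) against 7.41 ± 2.24 (n = 16), and the IGF-binding proteins Igfbp7 and Igfbp1 at 171 ± 59.4 against 72.6 ± 14.2 and at 533 ± 305 against 111 ± 72.6. Of 13 other transcription factors 6 were lower and 0 higher at 5 months, with Cebpa, a hepatocyte factor, at 180 ± 77.9 against 351 ± 74.9. Over all 72 samples the protein-coding genes most like Ghr in log2 level were Il1rap (Pearson's r 0.95), Klkb1 (0.94) and Akr1c14 (0.93), those most like Igfals were Rdh7 (0.88), Mettl26 (0.88) and Cebpa (0.87), and that most like Socs2 was Cish (0.68). These samples share groups and depth, so the values are a description.

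Markers of cell types moved with the same groups. Summed over 8 hepatocyte markers, the level ran from 66724 to 176890 with a median of 101310 in high-risk and from 83698 to 181500 with a median of 128410 in low-risk livers of 5 months, and 4 of the 8 were lower and 1 higher. In uninvolved livers the sum ran from 78081 to 114110, below the 123810 to 128850 of low-risk livers. The 7 stellate and fibroblast markers summed to a median of 1026 in high-risk against 496 in low-risk livers of 5 months, with 5 higher and 1 lower. Of 6 sinusoidal and other endothelial markers 1 was higher and 4 lower, where 20.3% of all genes were higher and 18.5% lower. The 5 cholangiocyte markers summed to a median of 263 in high-risk against 46.3 in low-risk livers. Most of that sum was Spp1, at 21.8 to 304 against 17.03 to 108. By edgeR 4 of the 5 were higher in high-risk livers, but the highest Krt19 and Epcam, 80.9 and 99.0, were in the low-risk group, where the high-risk group reached 8.64 and 17.8. Krt7 was at 0 in 1 of 72 samples, and the other markers of these lists were at 0 in none. Their part in the changes of the members was not tested, and in bulk RNA fewer hepatocytes and less RNA per cell cannot be told apart.

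Total counts ran from 2831666 to 45448610 per library, with 6 of 75 libraries deviating in depth, genes detected or mitochondrial share. Exons of Stat5a, Cish and Bcl6 overlap a gene on the opposite strand in the annotation, and the strand setting of the counting is not given in the sources used here, so reads of such partners cannot be told apart.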

How the data were processed

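Whole-number read counts per gene were deposited for 75 libraries in a single table. Per the submitters' processing notes, Trim Galore, HISAT2 and featureCounts were used with the mm10 build, and per the labels' protocols the libraries were stranded total RNA. Per the file name the deposited counts were adjusted between batches with ComBat-seq; its group settings, and the aligner's, are not given in the sources used here. Such an adjustment can narrow or widen differences between groups that are spread unevenly over batches.

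Groups follow the labels. The 2 libraries of 3-week vehicle mouse 3 were summed. Uninvolved libraries 3 and 6 were also summed, because they were unusually alike: their chi-square per degree of freedom was 3.48, above sampling noise, while in every other group the closest pair was at 13.5 or more. A single tumor from a vehicle mouse was kept out of all main comparisons. Of 55536 gene identifiers, 55450 matched GENCODE M21 (GRCm38), which gave positions and exon lengths.

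edgeR 4.0.16 in R 4.3.3 was used with TMM scaling, filterByExpr, robust quasi-likelihood F tests and Benjamini-Hochberg adjustment over all genes tested, at 0.05. Non-tumor groups were fitted together by age, and 5-month fits included sequencing batch. Each tumor comparison was a fit of its own, and ages were compared in vehicles of batch 1. P-values measure the spread between samples, each taken as a separate mouse by its number. The summed uninvolved sample carries more than 1 mouse number. Tumors and uninvolved livers of the same number were fitted as unpaired samples, except where the mouse was a replicate block. TBT was given to dams, but the labels name no litter, so litter was not modelled. Where mice shared a litter, p-values between mice can overstate replication. Correlations used permutation tests, exact for fewer than 10 samples and with 100000 random permutations for 10 or more. The pairs of genes correlated were chosen after the values were seen. All 10 genes were tested in every comparison, and a member not named in one did not pass adjustment in its main fit. Of each of 4 pathway lists, up to 3 genes with the smallest adjusted p and at least 1 CPM could be named. Members and lists were chosen with earlier results of these data known.

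Tumors and uninvolved livers of the same mouse number were checked for pairing: over 4 mice, deviations from the group means correlated at 0.177 to 0.603, so the number was taken to mark the same mouse. Alternatives were DESeq2 1.42.0, size factors by RLE, every gene kept, no TMM scaling, single batches, no batch covariate and other fits. Others left out deviating libraries or single samples, took the mouse as a replicate block, or added the tumor of a vehicle mouse to vehicles.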

Additional observations from a re-analysis of the deposited data

Results flagged for a closer look

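In 13 of 80 sets of values (a gene in a group of 4 to 10 samples), 1 sample lay far from the others by Dixon's criterion. Chance meets it in about 1 of 20 sets where values are normally distributed. It was applied to normalized CPM, not to log values. That rate therefore need not hold for genes of wide spread such as Cish, Bcl6 and Cux2. All values below are normalized CPM. At 3 weeks, TBT liver 6 was highest in Stat5b (143.04) and Bcl6 (21.727). At 5 months, vehicle liver 9, the shallowest library, was lowest in Igf1 (321.11) and Jak2 (14.205), vehicle liver 1 was highest in Cish (24.81), and high-risk livers 22 and 10 were highest in Stat5b (101.13) and Cux2 (21.02). At 10 months, low-risk liver 8 was lowest in Cish (6.1217) and highest in Bcl6 (65.391). Cux2 was highest in vehicle liver 4 (3.602), uninvolved liver 7 (5.262) and tumor 7 (4.9581), and tumor 7 was also highest in Igf1 (731.28). The tumor of a vehicle mouse, used in no main comparison, had Igf1 at 851.88, above all 6 vehicle livers of its age.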

How the results depend on the processing

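Of 1870 recomputed values of single genes, 1806 kept their side of the threshold, 87 of these with a change of sign in a value that was not called, 39 lost and 21 gained a call, and 4 reversed. Ghr stayed lower in high-risk than low-risk livers in every alternative run. Numbers of genes called moved as follows, and the cause was not tested. In batch 1 alone, high-risk against low-risk gave 1 and high-risk against vehicle 0. High-risk against vehicle gave 1 with every gene kept, 1 with only both groups fitted and 1 without TMM scaling (Jak2, higher, in place of Ghr and Stat5b), and 1 to 4 when a vehicle was left out (1 without vehicle 8, 4 without vehicle 9). Uninvolved against low-risk gave 3 without TMM scaling and 3 to 5 when a liver was left out (3 without uninvolved 7); against vehicle it gave 2 without TMM scaling. Tumor against vehicle gave 2 to 4 (2 without vehicle 4). From 3 weeks to 5 months, 0 were called with every gene kept and 4 by DESeq2, and from 5 to 10 months 1 with every gene kept. Tumor against uninvolved gave 1 with all 10-month groups fitted, and a replicate block by mouse number gave 1 over 6 pairs and 1 over 4, where Bcl6 reversed to -0.63. Without TMM scaling Jak2 reversed to 0.056 in uninvolved and to 0.27 in tumor against vehicle livers, and Stat5b to 0.026 in tumors. At 3 weeks numbers did not pair mice (correlations -0.266 to 0.254, 1 of 7 highest with its own number), and the block called 0. Alternatives without TMM scaling, without single 5-month vehicles and with the 3-week block were chosen after seeing the data. Cux2 and Cish had few counts in shallow libraries, down to 4 and 6.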
